A study of Mus musculus with 16 samples.

Results

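Cytochrome P450 genes were examined in whole mouse hearts by bulk RNA sequencing. The members are the 68 genes, of the 18346 in the deposited count table, whose symbol is Cyp followed by a family number, a subfamily letter and a member number. Hearts came from 4 groups of 4 mice: systemic Armh4 knockout (KO) mice at 25 months (aged KO), wild-type (WT) mice at 25 months (aged WT), KO mice at 8 weeks (young KO) and WT mice at 8 weeks (young WT). The series lists C57BL/6J as its wild-type strain, and all animals had ordinary chow and the same housing. The kind of knockout allele and its line are not given in the sources used here. Each heart is named by its group and animal number.

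Cytochrome P450 enzymes are haem proteins that insert an oxygen atom from molecular oxygen into lipids, steroids, vitamins and foreign compounds. Most sit in the endoplasmic reticulum and draw electrons from cytochrome P450 reductase, and a smaller mitochondrial set draws them from ferredoxin. Enzymes of families CYP1 to CYP3 mainly clear foreign compounds and are induced through the aryl hydrocarbon receptor (AHR), the constitutive androstane receptor (CAR) and the pregnane X receptor. CYP2C, CYP2J and CYP2U enzymes oxidise arachidonic acid, in part to epoxides that relax vessels, and CYP4 enzymes hydroxylate the far end of fatty acids and leukotrienes. Other families make or break down bile acids, oxysterols, steroid hormones, vitamin D and retinoic acid. The heart carries a small selection of these enzymes next to the liver, which is the main site of drug oxidation.

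Libraries held 11456503 to 13298660 counts. Armh4, the targeted gene, had 0.890 to 1.68 CPM (counts scaled to a common library size) in aged KO and 15.9 to 20.3 in aged WT hearts, and 0.0825 to 0.500 in young KO and 12.7 to 17.7 in young WT hearts. Its log2 change in KO was -4.01 ± 0.21 (SE) in aged and -5.33 ± 0.25 in young hearts (edgeR adjusted p = 2.31e-10 and 5.1e-11). All 8 cardiomyocyte markers examined passed the low-count filter, with a summed level of 82320 to 91590 CPM in aged KO, 82120 to 94340 in aged WT, 93550 to 110900 in young KO and 96200 to 106400 in young WT hearts.

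Of the 68 genes, 23 passed a low-count filter (at least 0.81 CPM, the level of about 10 counts, in at least 4 libraries) and entered the test, and 45 did not. Among the 45, Cyp2c67 and Cyp2c68 had no count in any heart, 35 had at most 10 counts over the 16 hearts together, and 10 had more. Cyp4f14, a fatty acid hydroxylase, was the only one to reach 10 counts in a library. The filter passed 6 of 21 enzymes of foreign compounds, 3 of 16 CYP2C, CYP2J and CYP2U genes, 7 of 14 CYP4 genes, 4 of 6 sterol and bile acid genes, 1 of 3 vitamin D genes, 1 of 3 retinoic acid genes, and the orphan Cyp20a1. None of the 4 steroid hormone genes passed: Cyp21a1, Cyp11a1, Cyp17a1 and Cyp11b2 had at most 4 counts in any heart. The large liver families were nearly silent, with at most 2 counts per heart for each of the untested CYP2C and CYP2J genes and at most 1 count for Cyp7a1, the entry enzyme of bile acid synthesis. Cyp2b10 and Cyp4f15 passed the filter through their aged hearts, since no young KO heart reached the minimum for either gene. Such genes had to differ between ages to be tested at all.

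Per unit of transcript length and over all hearts, Cyp4b1 and Cyp27a1 led, followed by Cyp2d22 and Cyp20a1. Cyp4b1, which oxidises fatty acids and activates furan toxins, averaged 19.6 FPKM over the 16 hearts (range 14.3 to 28.1). Cyp27a1, the mitochondrial sterol hydroxylase of bile acid and oxysterol synthesis, averaged 17.7 FPKM (11.1 to 23.7). Their ranges overlapped, and Cyp27a1 had the higher mean in aged WT hearts (20.5 FPKM, against 19.7 for Cyp4b1) and in young KO hearts (16.9 against 16.8). Cyp2d22, a CYP2D enzyme of drug oxidation, averaged 10.6 FPKM (8.00 to 13.9) and the orphan Cyp20a1 8.01 (6.00 to 10.7). Cyp3a13, of the drug-oxidising CYP3A family, averaged 6.38 FPKM, but its range of 1.40 to 54.6 was set by a pair of hearts described further on. Cyp4f13 averaged 5.09 FPKM (3.12 to 6.59), Cyp1a1 4.43 (1.08 to 10.2) and Cyp39a1, an oxysterol hydroxylase, 4.30 (3.39 to 5.19). At the low end, Cyp27b1, which activates vitamin D, averaged 0.309 FPKM and Cyp4f15 0.322.

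**Figure D1:**
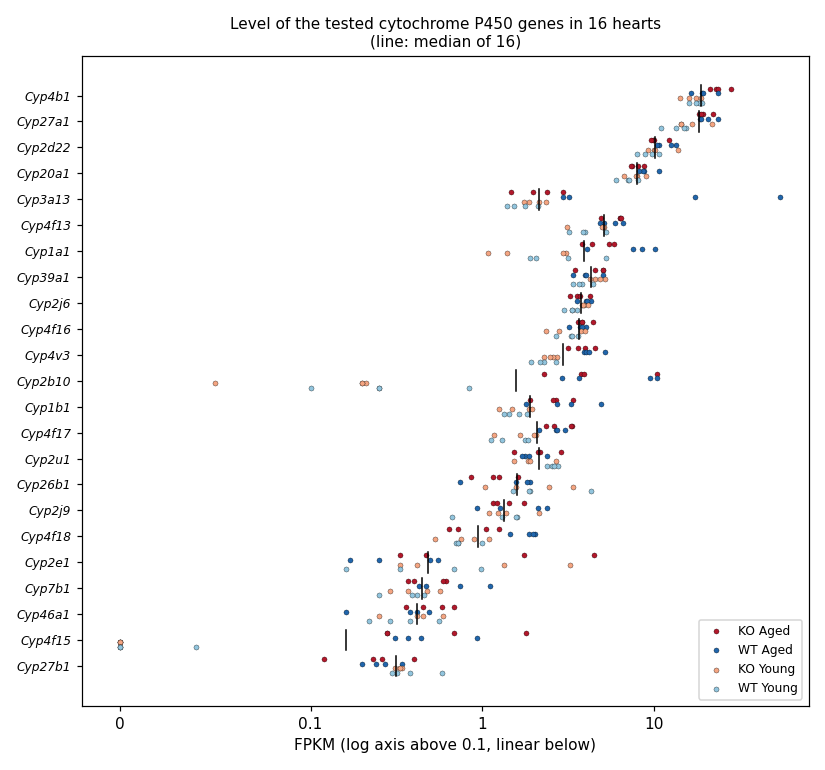
FPKM of the 23 tested cytochrome P450 genes in each of 16 hearts (points; black line, median), on an axis that is logarithmic above 0.1 and linear below, coloured by group. Cyp4b1 and Cyp27a1 sit highest, with means of 19.6 and 17.7 FPKM, and Cyp2b10, Cyp4f15 and Cyp3a13 have the widest spreads, Cyp4f15 with all 4 young KO hearts at 0.

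The first question was how these genes changed with age in each genotype. In aged against young WT hearts 10 of the 23 tested genes rose and none fell, in a comparison where 11.8% of all 13373 tested genes rose and 9.93% fell, 21.7% in all. In aged against young KO hearts 5 rose and none fell, where 5.03% of all genes rose and 2.6% fell, 7.63% in all. The 5 became 2 without KO_Young_38 and 3 without KO_Aged_115, and the 10 became 7 with only the WT groups in the fit. The median log2 change of the 23 genes was 0.33 in WT hearts, against -0.01 over all genes, and 0.16 in KO hearts, against -0.01. Both comparisons called Cyp2b10, Cyp4f15, Cyp4f17 and Cyp4v3. Cyp2b10 and Cyp4f15 are in all these counts and medians, though they passed the filter through their aged hearts. Their calls are therefore no support for a rise of the family. Passing in WT hearts and not in KO hearts were Cyp1a1, Cyp1b1, Cyp3a13, Cyp4f18, Cyp20a1 and Cyp27a1, and Cyp4b1 passed in KO hearts and not in WT hearts. For none of these 7 did the test of the difference between the ageing changes pass. Unless another tool is named, adjusted p-values come from edgeR with Benjamini-Hochberg adjustment over all genes.

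**Figure D2:**
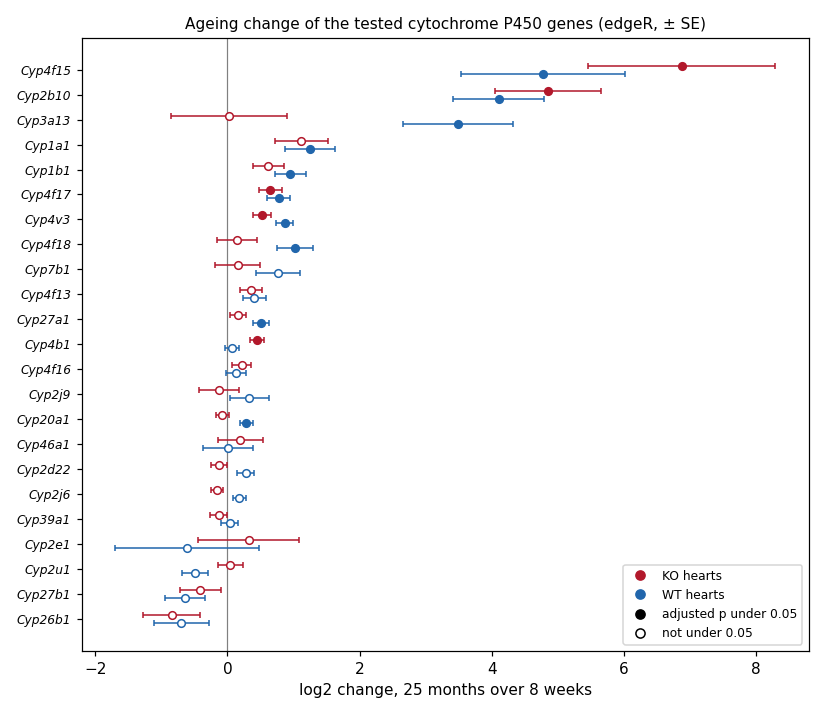
Fitted log2 change (± SE, edgeR) of each tested cytochrome P450 gene in aged over young hearts, for KO (red) and WT (blue), with filled points where the adjusted p was under 0.05. Cyp2b10 and Cyp4f15 lie far to the right in both genotypes, and Cyp3a13 in WT only; the fitted values of Cyp4f15 rest on young groups with 0 and 1 counts and are no measure of its fold.

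Among the enzymes of foreign compounds, the largest ageing change in both genotypes was that of Cyp2b10 (Entrez 13088), the classic CAR-induced gene of mouse liver. Its promoter and those of the 2 AHR-inducible CYP1 genes that were tested are shown with those of Cyp4f15 and Cyp4v3, other members that rose with age in both genotypes. Each is the 250 bases before the gene start in RefSeq's GRCm38.p6 build, written 5′ to 3′ on the gene's strand. They lie at chr9:57697363-57697612 (Cyp1a1, plus strand), chr17:79715062-79715311 (Cyp1b1, minus), chr7:25897408-25897657 (Cyp2b10, plus), chr17:32685409-32685658 (Cyp4f15, plus) and chr8:45333164-45333413 (Cyp4v3, minus). Capitals mark GCGTG, the core that AHR recognises, on either strand (CACGC on the other), and in Cyp4v3 also a match to the interferon response element (GAAA, any 2 bases, GAAA) on the other strand.
Cyp1a1: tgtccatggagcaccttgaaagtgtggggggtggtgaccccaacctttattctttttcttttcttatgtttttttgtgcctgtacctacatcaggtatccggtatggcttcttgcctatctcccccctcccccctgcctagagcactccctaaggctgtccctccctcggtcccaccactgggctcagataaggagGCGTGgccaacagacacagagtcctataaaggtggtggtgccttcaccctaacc
Cyp1b1: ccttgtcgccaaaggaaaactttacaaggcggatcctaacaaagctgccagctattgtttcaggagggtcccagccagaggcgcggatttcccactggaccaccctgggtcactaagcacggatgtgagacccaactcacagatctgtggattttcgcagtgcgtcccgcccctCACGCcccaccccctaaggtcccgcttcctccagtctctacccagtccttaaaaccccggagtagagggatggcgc
Cyp2b10: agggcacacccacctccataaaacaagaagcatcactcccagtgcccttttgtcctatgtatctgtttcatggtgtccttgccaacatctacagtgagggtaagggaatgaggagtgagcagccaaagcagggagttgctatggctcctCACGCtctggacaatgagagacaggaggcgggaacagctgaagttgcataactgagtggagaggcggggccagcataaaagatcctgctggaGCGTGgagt
Cyp4f15: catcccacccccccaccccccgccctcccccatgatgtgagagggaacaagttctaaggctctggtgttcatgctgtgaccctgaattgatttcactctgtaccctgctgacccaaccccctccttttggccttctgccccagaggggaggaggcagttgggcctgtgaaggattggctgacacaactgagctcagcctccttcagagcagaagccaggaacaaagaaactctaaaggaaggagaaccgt
Cyp4v3: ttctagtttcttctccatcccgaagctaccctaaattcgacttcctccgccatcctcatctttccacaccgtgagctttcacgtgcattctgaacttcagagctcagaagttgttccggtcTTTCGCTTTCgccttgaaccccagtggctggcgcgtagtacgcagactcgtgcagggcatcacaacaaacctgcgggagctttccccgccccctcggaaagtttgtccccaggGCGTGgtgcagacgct
The AHR core began 54 bases before the start in Cyp1a1, 76 in Cyp1b1, 101 and 9 in Cyp2b10 and 16 in Cyp4v3, and these letters did not occur in the Cyp4f15 window. RefSeq promoters matched 51 of the 68 members and 18 of the 23 tested. The AHR core occurred in 8 of the 18, against 28.2% of all 32851 promoters of that length, and TTCNNNGAA, the STAT palindrome, in 2 (Cyp4b1 and Cyp4f13), against 7.02%. The interferon response element occurred in 1, Cyp4v3, against 2.98%. All motifs were searched on both strands, and a match is a description of the letters, not a binding site.

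Cyp2b10 stood at 3.59, 5.80, 6.17 and 16.7 CPM in aged KO hearts, against 0.336, 0.329, 0.330 and 0.0834 CPM in young KO hearts. In aged WT hearts it stood at 4.54, 14.98, 5.96 and 16.3 CPM, against 0.161, 1.37, 0.431 and 0.420 CPM in young WT hearts. Every aged heart lay above every young heart, and within each aged group the highest heart was more than 3 times the lowest. The log2 change was 4.85 ± 0.81 (SE) in KO (adjusted p = 0.00248) and 4.10 ± 0.69 in WT hearts (adjusted p = 0.00079). The young groups rested on 13 and 29 counts in all. As ratios of summed counts over library totals, not of CPM, the rises were 31.2-fold in KO and 18.2-fold in WT. Their exact 95% intervals were 18.01 to 59.02 and 12.6 to 27.5, and cover counting error only. The rises were 20.3-fold in KO without KO_Aged_125 and 32.9-fold in WT without WT_Young_34, which held 17 of the 29 young WT counts. Aged KO and aged WT hearts overlapped, with a log2 difference of -0.37 ± 0.49 (adjusted p = 0.859), and the difference between the ageing changes was 0.75 ± 1.30 (adjusted p = 0.870). Both ageing calls held under every alternative run. On log2(FPKM + 1), a scale that understates low genes, the changes were 2.23 in KO and 2.37 in WT hearts.

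Because Cyp2b10 is a liver gene, liver RNA was checked. None of 8 hepatocyte markers passed the filter, all 8 had some counts, and their summed level was 0.918 to 1.14 CPM in aged KO and 1.04 to 8.80 in aged WT hearts, against 0.578 to 4.45 in young KO and 0.885 to 1.26 in young WT hearts. The sums overlapped between ages in both genotypes, and the highest was that of an aged WT heart. The part of liver RNA in the Cyp2b10 values was not tested. Lung epithelium, another site of P450 expression, gave 0.994 to 2.18 CPM over 8 markers in aged KO and 1.84 to 3.33 in aged WT hearts, against 0.578 to 1.56 in young KO and 0.503 to 0.965 in young WT hearts. Sftpb, a surfactant gene, had no count, and of the 8 only Napsa passed the filter. Napsa rose with age in WT hearts by 3.08 ± 0.51 on the log2 scale (adjusted p = 0.00021). It averaged 1.65 CPM in aged WT and 0.186 CPM in young WT hearts. All young WT hearts lay under the filter minimum for Napsa. It passed the filter through other hearts, so its rise in WT ageing was in part fixed by it. The part of lung RNA in any P450 level was not tested. Among the tested genes whose log2 CPM followed Cyp2b10 most closely over the 16 hearts were Sh3gl2, Dixdc1, Acsm5 and Kif5a, with Pearson r of 0.943, 0.942, 0.938 and 0.938. They were picked from all tested genes by this r. Each had its aged hearts above its young ones, so r in part restates the difference between ages. Acsm5, a mitochondrial acyl-CoA synthetase, spanned 17.1 to 27.8 CPM in aged KO and 12.98 to 31.1 in aged WT hearts, against 4.37 to 9.92 in young KO and 5.15 to 8.22 in young WT hearts.

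Cyp1a1 (Entrez 13076), the main AHR-inducible oxidase of polycyclic aromatic compounds, had 10.02, 8.53, 12.6 and 13.8 CPM in aged KO hearts, against 3.28, 2.55, 7.51 and 7.42 CPM in young KO hearts. It had 19.5, 17.4, 24.1 and 9.28 CPM in aged WT hearts, against 12.2, 4.51, 5.17 and 7.64 CPM in young WT hearts. Ages did not overlap in KO hearts, and in WT hearts the lowest aged heart, WT_Aged_12, lay below the highest young one, WT_Young_29. The log2 change passed in WT hearts at 1.25 ± 0.38 (adjusted p = 0.0289). In KO hearts it was 1.12 ± 0.40 and did not pass (adjusted p = 0.115), although it did with limma on log2(FPKM + 1), at 0.96 ± 0.28 (adjusted p = 0.0405), and on log2(FPKM + 0.1), at 1.28 ± 0.35 (adjusted p = 0.0344). The WT call was lost without WT_Aged_1 (adjusted p = 0.0662), WT_Aged_5 (0.0756), WT_Young_34 (0.0809), WT_Young_39 (0.0893) or WT_Young_42 (0.0607), and without both WT_Aged_4 and WT_Aged_5 (0.96, adjusted p = 0.144). The difference between the ageing changes was -0.13 ± 0.55 (adjusted p = 0.953).

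Cyp1b1 (Entrez 13078), which oxidises oestrogens and aromatic compounds outside the liver, had 12.8, 12.0, 16.1 and 9.30 CPM in aged KO hearts, against 9.16, 7.33, 9.74 and 6.51 CPM in young KO hearts. It had 23.2, 13.0, 8.94 and 15.2 CPM in aged WT hearts, against 7.97, 9.09, 7.58 and 6.46 CPM in young WT hearts. In each genotype the lowest aged heart fell within the young range. The log2 change was 0.95 ± 0.24 in WT hearts (adjusted p = 0.00749), a call kept under every alternative. In KO hearts it was 0.62 ± 0.24 (adjusted p = 0.129), and it passed there without WT_Aged_1 (0.62, adjusted p = 0.0326), without both WT_Aged_4 and WT_Aged_5 (0.62, adjusted p = 0.0366) and with only the KO groups in the fit (0.63, adjusted p = 0.0292). The other tested genes of this role, Cyp2d22 and the ethanol-inducible Cyp2e1, were not called with age. Cyp2d22 differed by 0.27 ± 0.12 in WT hearts with an unadjusted p under 0.05 (adjusted p = 0.116).

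Cyp3a13 (Entrez 13113) showed an ageing change in WT hearts whose size, though not its call, rested on WT_Aged_4 and WT_Aged_5. It had 10.4, 12.6, 6.32 and 8.81 CPM in aged KO hearts, against 9.75, 10.5, 8.83 and 8.34 CPM in young KO hearts. In WT_Aged_1, WT_Aged_4, WT_Aged_5 and WT_Aged_12 it had 13.7, 76.4, 249 and 12.7 CPM, against 7.89, 6.999, 6.72 and 9.73 CPM in young WT hearts. WT_Aged_5 and WT_Aged_4 stood far above the other 14 hearts, which spanned 6.32 to 13.7 CPM, and all 4 aged WT hearts lay above all 4 young ones. The ageing change in WT hearts was 3.49 ± 0.83 (adjusted p = 0.00996), and 2.13 without WT_Aged_5 (adjusted p = 0.0171). Without both WT_Aged_4 and WT_Aged_5 it was 0.76 ± 0.20 and still passed (adjusted p = 0.0126), and with only the WT groups in the fit it was 3.51 and did not (adjusted p = 0.0945). In KO hearts it was 0.02 ± 0.87 (adjusted p = 0.993). All 16 libraries held fractional counts of Cyp3a13, so reads may be shared with a similar gene and its level is uncertain. Among the other called members, Cyp20a1 held fractional counts in 6 libraries.

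The aged WT hearts that were high in Cyp3a13 were high in other genes too. Across the 16 hearts the log2 CPM of Cyp3a13 followed Hdac8, 3300002I08Rik, Gm17768, F830016B08Rik and Parp10 most closely, with Pearson r of 0.987, 0.982, 0.981, 0.981 and 0.979. These genes were chosen after the values of Cyp3a13 were seen, and each r rests on the same 2 hearts. Hdac8, a histone deacetylase, had 86.9 CPM in WT_Aged_5 and 25.0 in WT_Aged_4, against 4.82 to 8.60 CPM in the other 14. Fractional counts occurred for Hdac8 too. Parp10, an ADP-ribosyltransferase, had 66.3 CPM in WT_Aged_5 and 45.4 in WT_Aged_4, against 16.9 to 23.1 CPM in the other 14.

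**Figure D3:**
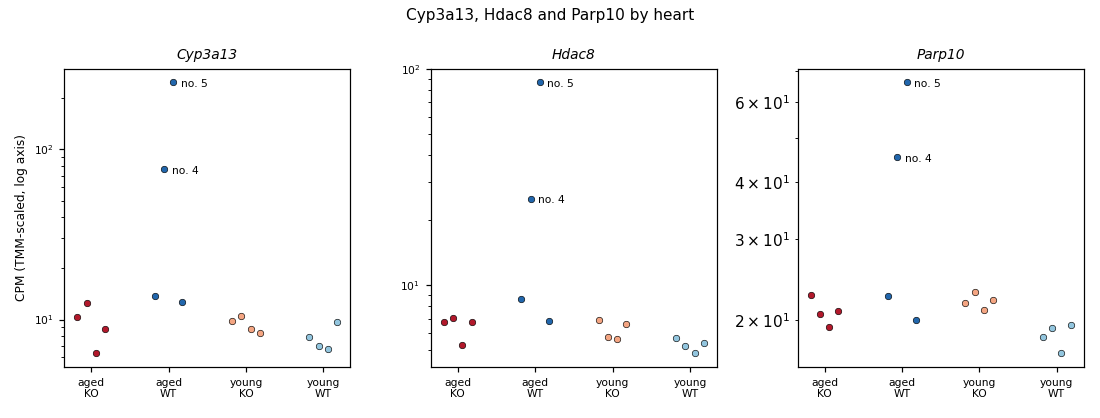
CPM (log axes) of Cyp3a13, Hdac8 and Parp10 in each of 16 hearts, with the 2 high aged WT hearts labelled by animal number. WT_Aged_5 and WT_Aged_4 are the highest in each panel, at 249 and 76.4 CPM for Cyp3a13 against 6.32 to 13.7 CPM in the other 14 hearts.

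The arachidonic acid enzymes of the CYP2J and CYP2U families, Cyp2j6, Cyp2j9 and Cyp2u1, showed no call with age. Cyp2u1 had 3.57, 3.41, 3.90 and 4.72 CPM in aged WT hearts, against 4.91, 5.79, 5.68 and 5.54 CPM in young WT hearts. These groups did not overlap, and the log2 change of -0.49 ± 0.19 did not pass (adjusted p = 0.0738). In KO hearts the ages overlapped, at 3.15 to 5.79 CPM in aged and 3.19 to 5.78 CPM in young hearts.

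In the CYP4 family, Cyp4f15, Cyp4f17 and Cyp4v3 rose with age in both genotypes, Cyp4f18 in WT hearts and Cyp4b1 in KO hearts. Cyp4f15 (Entrez 106648), a hydroxylase of fatty acids and leukotrienes, had 5, 11, 5 and 38 counts in aged KO hearts, against 0 in each of the 4 young KO hearts. It had 7, 19, 11 and 5 counts in aged WT hearts, against 0, 0, 1 and 0 in young WT hearts. It was thus counted in every aged heart and in 1 of 8 young hearts, and among aged hearts KO_Aged_125 stood highest, at 3.07 CPM. In summed counts over library totals, the rise was at least 19.7-fold in KO hearts. The 0 counts of the young group were set to a floor of 3 over the group. Without KO_Aged_125, which held 38 of the 59 counts, the bound was 9.33-fold. It was 42.2-fold in WT hearts, with a counting interval of 7.16 to 1704, and at least 10.5-fold without WT_Young_39, which held the only young count. The adjusted p was 0.00741 in KO and 0.0121 in WT hearts. On log2(FPKM + 1) the change was 0.74 in KO and 0.57 in WT hearts. The WT call was lost without WT_Aged_4 and WT_Aged_5 together (adjusted p = 0.0771).

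Cyp4f15 lies on mouse chromosome 17 among relatives, in the RefSeq order Cyp4f39, Cyp4f17, Cyp4f16, Cyp4f37, Cyp4f40, Cyp4f15, then 4 zinc finger genes, Cyp4f14 and Cyp4f13. Similar coding sequences could exchange reads, although Cyp4f15, Cyp4f17, Cyp4f16 and Cyp4f13 had whole counts in every library. Cyp4f16 was not called with age, at 0.21 ± 0.15 in KO (adjusted p = 0.433) and 0.12 ± 0.15 in WT hearts (adjusted p = 0.591). Cyp4f13 differed by 0.36 ± 0.17 in KO (adjusted p = 0.222) and 0.41 ± 0.17 in WT hearts (adjusted p = 0.0962), and passed in WT hearts without WT_Aged_1 (0.53, adjusted p = 0.0344) or WT_Young_29 (0.57, adjusted p = 0.0304). Cyp4f14, under the filter, had 1, 3, 3 and 6 counts in aged KO hearts, against 4, 3, 8 and 4 counts in young KO hearts. It had 5, 7, 10 and 8 counts in aged WT hearts, against 4, 1, 1 and 1 counts in young WT hearts. Tested with no filter, its WT change was 1.96 ± 0.57 (adjusted p = 0.0193), and by DESeq2 2.04 ± 0.76 (adjusted p = 0.0366). Among the genes that followed Cyp4f15 most closely over the 16 hearts were Pth1r, Aldh9a1, Epor and Grn (Pearson r 0.937, 0.926, 0.916 and 0.906). They were picked from all tested genes by this r. Each had its aged hearts above its young ones, so r in part restates the difference between ages.

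Cyp4f17 (Entrez 208285) had 5.58, 7.37, 6.32 and 7.60 CPM in aged KO hearts, against 4.79, 4.78, 4.46 and 3.09 CPM in young KO hearts. It had 5.03, 6.10, 7.03 and 6.08 CPM in aged WT hearts, against 4.02, 4.34, 2.93 and 2.85 CPM in young WT hearts. No aged heart overlapped a young one in either genotype. The log2 change was 0.65 ± 0.18 in KO (adjusted p = 0.0261) and 0.77 ± 0.18 in WT hearts (adjusted p = 0.0041). The KO call was lost without KO_Aged_115 (adjusted p = 0.0822), KO_Aged_125 (0.0827), KO_Young_38 (0.0511) or KO_Young_53 (0.0987).

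Cyp4v3 (Entrez 102294) is the mouse counterpart of human CYP4V2, a fatty acid hydroxylase mutated in Bietti crystalline dystrophy of the retina. It had 9.18, 11.4, 10.3 and 8.33 CPM in aged KO hearts, against 7.23, 6.83, 6.27 and 6.92 CPM in young KO hearts. It had 13.3, 9.99, 10.7 and 10.6 CPM in aged WT hearts, against 5.96, 5.79, 5.43 and 7.30 CPM in young WT hearts. The ages did not overlap in either genotype, and the 4 values of each group lay close together. The log2 change was 0.52 ± 0.13 in KO (adjusted p = 0.0177) and 0.86 ± 0.13 in WT hearts (adjusted p = 9.3e-05), the smallest adjusted p of the 23 genes. The WT call held under every alternative run, and the KO call was lost without KO_Aged_115 (adjusted p = 0.07) or KO_Young_38 (0.0568). The difference between the ageing changes was -0.34 ± 0.19 (adjusted p = 0.484).

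Cyp4b1 (Entrez 13120), the member of highest mean FPKM over the 16 hearts, had 34.2, 36.1, 45.2 and 38.97 CPM in aged KO hearts, against 29.4, 30.95, 24.6 and 28.3 CPM in young KO hearts. It had 30.6, 37.9, 27.4 and 30.6 CPM in aged WT hearts, against 31.4, 26.8, 32.5 and 30.0 CPM in young WT hearts. Ages were separate in KO hearts and overlapped in WT hearts. The log2 change was 0.45 ± 0.11 in KO (adjusted p = 0.0139) and 0.07 ± 0.11 in WT hearts (adjusted p = 0.694), and the difference between them, 0.38 ± 0.15, did not pass (adjusted p = 0.317). The KO call was lost without KO_Aged_122 (adjusted p = 0.0571) or KO_Young_38 (0.0526).

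Cyp4f18 (Entrez 72054), a leukotriene hydroxylase of mouse neutrophils, had 1.76, 0.911, 1.07 and 1.94 CPM in aged KO hearts, against 0.757, 1.24, 1.24 and 1.92 CPM in young KO hearts. It had 2.84, 3.17, 2.22 and 2.72 CPM in aged WT hearts, against 1.69, 1.05, 1.29 and 1.34 CPM in young WT hearts. Every aged WT heart lay above the other 12 hearts, while aged and young KO hearts overlapped. The log2 change was 1.02 ± 0.28 in WT (adjusted p = 0.0115), kept under every alternative, and 0.14 ± 0.30 in KO hearts (adjusted p = 0.837). Neutrophil markers also rose in WT ageing, and in KO ageing they rose in part while Cyp4f18 was not called. Their summed level over 8 markers, all with counts, was 4.89 to 15.9 CPM in aged KO and 22.7 to 36.9 in aged WT hearts, against 1.84 to 4.12 in young KO and 1.89 to 2.66 in young WT hearts. Of the 4 that passed the filter, 4 rose with age in WT hearts, 2 rose with age in KO hearts and 2 were called lower in KO than in WT at 25 months. Of all tested genes, 11.8%, 5.03% and 0.71% did so. In young WT hearts S100a8 had at most 3 counts, S100a9 at most 5 and Cxcr2 at most 7.13. They passed the filter through other hearts, so their rises in WT ageing were in part fixed by it. Csf3r had 16 to 20 counts in young WT hearts. S100a9 averaged 2.46 CPM in aged KO hearts, against 10.9 CPM in aged WT hearts. The part of neutrophil number in Cyp4f18 was not tested. In bulk tissue, fewer cells of a type and less RNA per cell cannot be told apart.

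**Figure D4:**
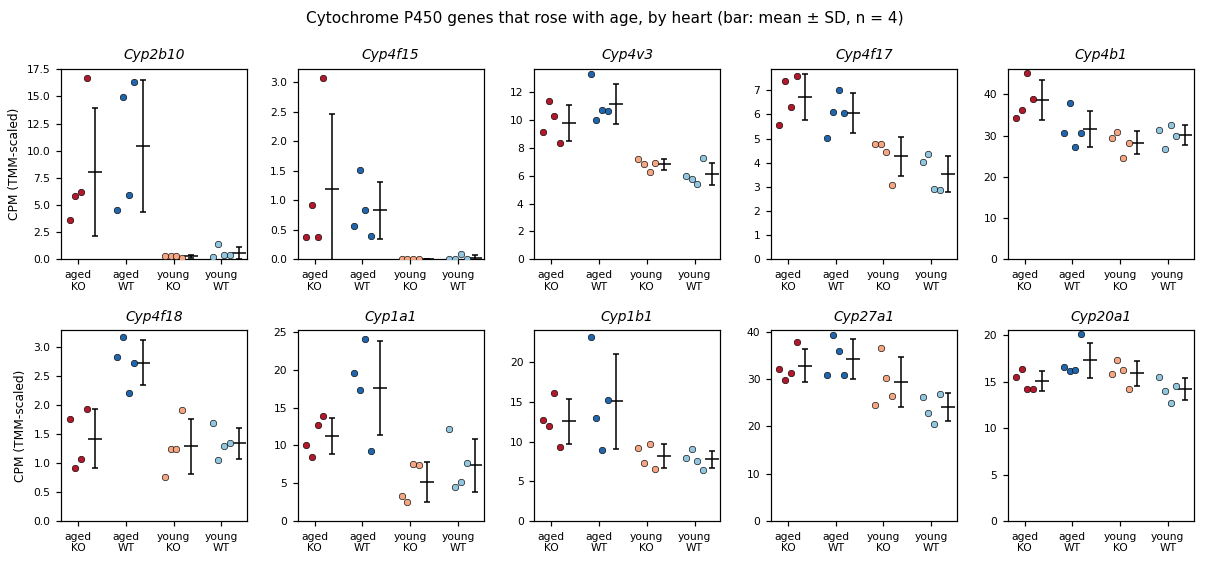
CPM of 10 cytochrome P450 genes that rose with age in at least 1 genotype, by heart (points), with group mean ± SD (n = 4 hearts each). The aged hearts of both genotypes stand above all young hearts for Cyp2b10, Cyp4f15, Cyp4v3 and Cyp4f17, and for Cyp4f18 the aged WT hearts stand alone at 2.22 to 3.17 CPM.

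Of the sterol genes, Cyp27a1 rose with age in WT hearts. Cyp27a1 (Entrez 104086) had 32.2, 29.8, 31.3 and 37.8 CPM in aged KO hearts, against 24.6, 36.5, 30.1 and 26.4 CPM in young KO hearts. It had 30.8, 39.3, 35.8 and 30.8 CPM in aged WT hearts, against 26.2, 22.8, 20.5 and 26.8 CPM in young WT hearts. The ages were separate in WT hearts and overlapped in KO hearts. The log2 change in WT hearts was 0.51 ± 0.12 (adjusted p = 0.00572), and 0.36 without both WT_Aged_4 and WT_Aged_5, where it did not pass (adjusted p = 0.0758). In KO hearts the log2 change was 0.16 ± 0.12 and did not pass (adjusted p = 0.499). Macrophages are a known site of Cyp27a1 expression, and 7 of 8 macrophage markers rose with age in each genotype. Of all tested genes 11.8% rose in WT ageing and 5.03% in KO ageing. The summed level of the macrophage markers was 275 to 300 CPM in aged KO and 361 to 482 in aged WT hearts, against 157 to 205 in young KO and 149 to 196 in young WT hearts. Their part in the Cyp27a1 change was not tested. Cyp7b1, which hydroxylates oxysterols, differed by 0.77 ± 0.33 in WT hearts (adjusted p = 0.105), and passed without WT_Aged_4 and WT_Aged_5 (1.18, adjusted p = 0.0214). Cyp39a1 and Cyp46a1, the cholesterol hydroxylase of brain, were not called.

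The orphan Cyp20a1 (Entrez 77951), whose substrate is not known, had 16.6, 16.2, 16.3 and 20.2 CPM in aged WT hearts, against 15.5, 14.0, 12.7 and 14.5 CPM in young WT hearts. The groups were separate by a narrow gap, and WT_Aged_12 stood above the other aged WT hearts. Its log2 change of 0.28 ± 0.10 passed close to the threshold (adjusted p = 0.047). The call was lost without WT_Aged_12 (0.21, adjusted p = 0.163), WT_Young_34 (0.0848), WT_Young_39 (0.15) or WT_Young_42 (0.0662), and also without KO_Aged_114, KO_Aged_115, KO_Aged_122 or KO_Aged_125 (0.0573, 0.0503, 0.0532 and 0.0542). It was lost too by DESeq2 (adjusted p = 0.057), with no low-count filter (0.0741) and with only the WT groups (0.0927). Aged KO hearts had 14.2 to 16.3 CPM, against 14.2 to 17.4 CPM in young KO hearts.

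The vitamin D and retinoic acid enzymes were not called with age. Cyp27b1 had 0.880 to 1.76 CPM in aged WT hearts, against 1.53 to 2.85 CPM in young WT hearts, a log2 change of -0.64 ± 0.30 (adjusted p = 0.136). Cyp26b1, which degrades retinoic acid, had 4.13 to 7.52 CPM in aged KO and 3.33 to 9.11 in aged WT hearts, against 5.13 to 16.4 in young KO and 7.47 to 22.0 in young WT hearts. Its log2 change was -0.85 ± 0.43 in KO (adjusted p = 0.281) and -0.70 ± 0.42 in WT hearts (adjusted p = 0.258).

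The second question was whether loss of Armh4 altered these genes at each age. None of the 23 was called by edgeR in aged KO against aged WT hearts, where 0.165% of all genes were higher and 0.71% lower, 0.875% in all. None was called in young KO against young WT hearts, where 0.0523% were higher and 0.217% lower, 0.269% in all. At an unadjusted p under 0.05 there were 4 of 23 in aged hearts, where 10.9% of all genes reached that level, and 3 of 23 in young hearts, where 11% did. In aged hearts, DESeq2, edgeR with no robust variance prior and limma on log2(FPKM + 1) each called 1 gene, and without WT_Aged_12 edgeR called 1. Every one of these was lower in KO hearts. Neither DESeq2 nor limma called any member in young hearts.

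The 4 in aged hearts were Cyp3a13, Cyp4f18, Cyp4b1 and Cyp2e1. Cyp3a13 was lower in aged KO hearts, with no overlap, at a log2 difference of -3.21 ± 0.81 (adjusted p = 0.105). It was called by DESeq2 (adjusted p = 0.00095), with no robust prior (0.02) and without WT_Aged_12 (-3.58, adjusted p = 0.0222), and was -1.85 without WT_Aged_5 (adjusted p = 0.181). Without WT_Aged_4 and WT_Aged_5 the difference was -0.47 ± 0.20 (adjusted p = 0.193). Cyp4f18 averaged 1.42 ± 0.51 CPM in aged KO hearts, against 2.74 ± 0.40 CPM in aged WT hearts (SD, n = 4 each), with no overlap and a log2 difference of -0.94 ± 0.27 (edgeR adjusted p = 0.119). On log2(FPKM + 1) it was called, at -0.57 ± 0.11 (adjusted p = 0.0242). Cyp4b1 averaged 38.6 ± 4.83 CPM in aged KO hearts, against 31.6 ± 4.46 CPM in aged WT hearts (SD, n = 4 each), a log2 difference of 0.29 ± 0.11 (edgeR adjusted p = 0.278).

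Cyp2e1 had 0.688, 2.49, 6.55 and 0.485 CPM in aged KO hearts, against 0.243, 0.793, 0.382 and 0.720 CPM in aged WT hearts. Among young hearts it had 2.02, 0.494, 5.03 and 0.667 CPM in KO, against 1.45, 1.05, 0.258 and 0.503 CPM in WT. KO_Aged_122 and KO_Young_38 stood highest, and the genotypes overlapped at both ages. The log2 difference was 2.24 ± 0.93 in aged (adjusted p = 0.381) and 1.31 ± 0.89 in young hearts (adjusted p = 0.619). Fat is a known site of Cyp2e1. Adipoq, 1 of 8 white fat markers and under the filter, also stood highest in these hearts. It had 0.609 CPM (8 counts) in KO_Aged_122 and 1.24 CPM (15 counts) in KO_Young_38. The summed level of 8 white fat markers, all with counts and 3 of them tested, was 77.4 to 100 CPM in aged KO and 51.3 to 103 in aged WT hearts, and 56.9 to 90.5 in young KO and 60.1 to 64.2 in young WT hearts. The highest sum among aged hearts was in WT, and that among young hearts was in KO. The part of fat in the Cyp2e1 values was not tested.

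In young hearts the 3 with an unadjusted p under 0.05 were Cyp27a1, Cyp2j6 and Cyp39a1, all higher in KO. Cyp2j6, an epoxygenase of arachidonic acid, had 13.0, 13.6, 14.6 and 13.9 CPM in young KO hearts, against 12.1, 12.1, 10.9 and 12.1 CPM in young WT hearts. These groups did not overlap, and the log2 difference of 0.22 ± 0.10 did not pass (adjusted p = 0.404). Cyp27a1 differed by 0.29 ± 0.12 (adjusted p = 0.397) and Cyp39a1 by 0.30 ± 0.13 (adjusted p = 0.411).

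**Figure D5:**
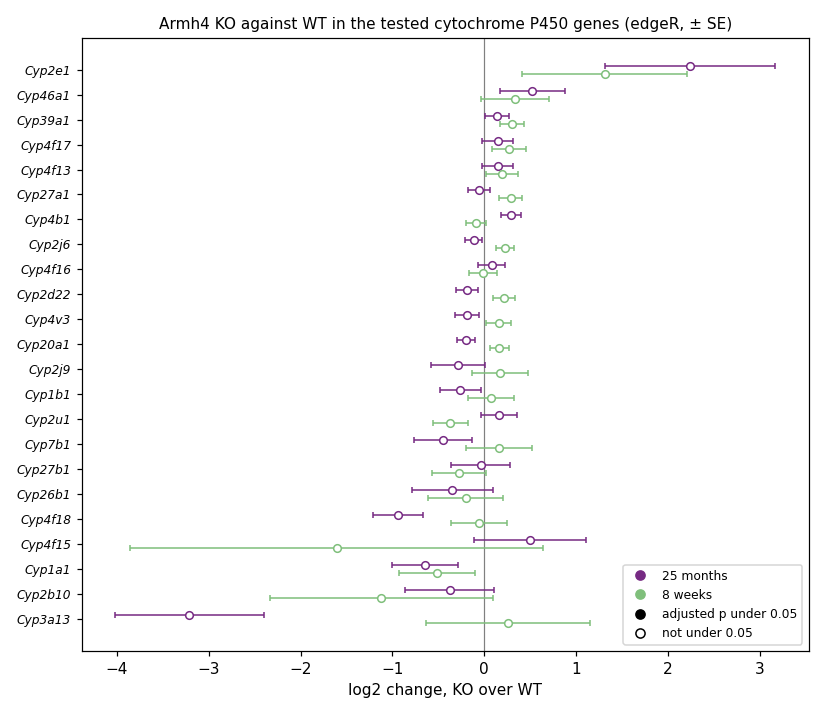
Fitted log2 difference (± SE, edgeR) of each tested cytochrome P450 gene in KO over WT hearts, at 25 months (purple) and 8 weeks (green). All points are open, since no adjusted p was under 0.05, and the widest departures are those of Cyp3a13 at -3.21 and Cyp2e1 at 2.24 in aged hearts.

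The interaction, which is the KO ageing change less the WT ageing change, called none of the 23 by edgeR, where 0.127% of all genes were higher and 0.336% lower, 0.464% in all. At an unadjusted p under 0.05, a level that 12.2% of all genes reached, there were 6: Cyp3a13 (-3.47 ± 1.20, adjusted p = 0.269), Cyp20a1 (-0.36 ± 0.14, 0.301), Cyp2j6 (-0.34 ± 0.14, 0.313), Cyp4b1 (0.38 ± 0.15, 0.317), Cyp2d22 (-0.40 ± 0.17, 0.345) and Cyp4f18 (-0.88 ± 0.41, 0.392). DESeq2 called Cyp3a13 (adjusted p = 0.0385), and limma called none. Without WT_Aged_4 and WT_Aged_5 the value for Cyp3a13 was -0.73 (adjusted p = 0.212). Each ageing comparison shares a group of hearts with each genotype comparison, and the interaction uses all groups, so these values are not separate evidence. The KO and WT ageing comparisons share no hearts, and neither do the aged and young genotype comparisons. All were tested in 1 fit.

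Genes that serve the P450 system were counted in lists, to be read against the 21.7% of all genes called in WT ageing and the 7.63% in KO ageing. The electron donor and haem counts were near or below these shares. In WT ageing the counts of the receptor list and of the fatty acid and eicosanoid list below were also near the share. No list was tested as a list. Of 12 tested electron donors 1 rose in WT ageing, cytochrome b5 (Cyb5a), by 0.45 ± 0.09 (adjusted p = 0.00114). P450 reductase (Por), the main donor, was not called. Of 12 haem genes, 2 rose in WT ageing and 1 fell: haem oxygenase Hmox1 rose by 1.38 ± 0.24, biliverdin reductase Blvra rose by 0.36 ± 0.13, and Alas1, the first enzyme of haem synthesis, fell by 0.88 ± 0.17 on the log2 scale. In KO ageing 1 of the 12 rose, Hmox1 by 1.02 ± 0.23. Alas1 spanned 166 to 285 CPM in aged KO and 148.5 to 268.7 in aged WT hearts, against 189 to 231 in young KO and 334 to 419 in young WT hearts. It was not called in KO ageing, where the ages overlapped, and young KO hearts lay below young WT hearts without a call. Tbxas1, thromboxane synthase and a P450 under another symbol, was the 1 of 3 such genes to rise in WT ageing, by 0.91 ± 0.21 (adjusted p = 0.00356).

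Of 19 tested receptors of foreign compounds, lipids and retinoids, 3 rose and 2 fell in WT ageing, and 2 rose and 1 fell in KO ageing. Ahr rose in WT hearts by 0.96 ± 0.20 (adjusted p = 0.00196), at 19.5 ± 2.64 CPM in aged WT and 9.95 ± 3.27 CPM in young WT hearts (SD, n = 4 each). The bile acid receptor Nr1h4 rose in both, by 1.27 ± 0.35 in KO and 1.27 ± 0.36 in WT hearts, and the oxysterol receptor Nr1h3 by 0.50 ± 0.10 and 0.41 ± 0.10. Nr1h4 had 4 to 10 counts in young and 10 to 19 in aged hearts. It passed the filter mainly through its aged hearts, so its calls were in part fixed by the filter. The falls were those of Nr0b2 and Rarb in WT hearts, at -0.60 ± 0.13 and -0.38 ± 0.10, and of Rxrg in KO hearts, at -0.35 ± 0.10. The pregnane X receptor Nr1i2 was under the filter. Of 7 tested AHR targets, Nqo1, Cyp1b1 and Cyp1a1 rose in WT ageing, Nqo1 by 0.82 ± 0.14, and the list's median was 0.82 against -0.01 over all genes. In KO ageing 1 of the 7 rose, Ugt1a6a by 2.45 ± 0.70, and the median was 0.35. Of 5 tested CAR targets, Cyp2b10 and Gstm2 rose and Alas1 fell in WT ageing, and Cyp2b10 alone rose in KO ageing. For Gstm2, a glutathione transferase, the ageing change differed between genotypes, by -0.62 ± 0.12 (adjusted p = 0.0199).

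Among 12 genes that release fatty acids, form other eicosanoids or open epoxides, 3 rose in each ageing comparison. Ephx1, the microsomal epoxide hydrolase, rose by 0.78 ± 0.08 in KO (adjusted p = 6.3e-06) and 0.59 ± 0.08 in WT hearts (adjusted p = 2.4e-05). It averaged 93.1 CPM in aged KO and 54.3 in young KO hearts, and 91.6 CPM in aged WT and 60.7 in young WT hearts. Alox5ap, the lipoxygenase activator of leukotriene synthesis in myeloid cells, rose by 0.87 ± 0.16 in KO and 1.25 ± 0.15 in WT hearts. It was the only gene of these lists to change between genotypes in aged hearts, at 9.31 ± 1.71 CPM in KO and 14.8 ± 2.58 CPM in WT (SD, n = 4 each; log2 -0.66 ± 0.15, edgeR adjusted p = 0.0348). The macrophage and neutrophil sums given above moved with it, and their part was not tested. Ptgs1 rose in KO ageing by 0.48 ± 0.14, and Alox12 in WT ageing by 1.17 ± 0.22. Of 6 tested retinoid handling genes, Aldh1a2 (1.49 ± 0.50) and Dhrs3 (0.30 ± 0.10) rose in WT ageing and Aldh1a1 (0.53 ± 0.15) in KO ageing.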

How the data were processed

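Whole hearts of 16 mice were profiled by bulk RNA sequencing. The authors deposited a table of expected counts, of which 9.57% to 10.5% per library were fractional (tolerance 1e-09), and a table of FPKM values, scaled for depth and gene length. HISAT, Bowtie2 and build GRCm39 are named, per the submitters' processing notes, with no roles; what counted the reads is not stated there. Counts were rounded, and edgeR 4.0.16 (R 4.3.3) fitted a quasi-likelihood model with a robust variance prior after filterByExpr (minimum count 10) and TMM scaling, in 1 fit of 16 libraries and 4 groups, with 12 residual degrees of freedom and Benjamini-Hochberg adjustment over 13373 genes. A gene rose or fell where its adjusted p was under 0.05. The SE of an edgeR value was derived from its test, as the absolute log2 change over the square root of the F statistic. CPM values are TMM-scaled. Total counts of 11456503 to 13298660 per library set the precision. Alternatives were other scalings and filters, DESeq2 1.42.0, limma 3.58.1 on log2(FPKM + 1) and log2(FPKM + 0.1), fits of only the 2 groups, each heart left out, and, chosen after seeing the data, no robust prior and leaving out WT_Aged_4 and WT_Aged_5. Members and lists were chosen with earlier results of these data known. All tested members past the threshold are described by heart, and list genes past it by value; some genes that followed a member's pattern are not reported here. The model was tested on simulated data. The hearts are described as independent biological replicates in the series' design text. Promoters are from RefSeq (GRCm38.p6), and no gene coordinates of the files' build were used.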

Additional observations from a re-analysis of the deposited data

Results flagged for a closer look

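Of 91 groups of 4 hearts checked (the tested members with a spread, in each group), 6 held a heart whose gap to the nearest other heart took up most of the group's range. Chance alone marks about 1 in 20 groups. The hearts marked as highest were WT_Aged_12 for Cyp20a1 at 20.2 CPM, WT_Young_39 for Cyp26b1 at 22 CPM, KO_Aged_125 for Cyp2d22 at 30.4 CPM, and WT_Young_39 for Cyp4f15 at 0.0861 CPM, which is 1 count. Marked as lowest were WT_Young_39 for Cyp2j6 at 10.9 CPM and KO_Young_53 for Cyp2b10 at 0.0834 CPM, also 1 count.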

How the results depend on the processing

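No paired analysis was possible because the 4 groups share no animal number. Over 26 settings, 46 member results gave 1176 comparisons with the reported values: 1122 kept direction and call, 28 lost the call, 13 gained it and 13 changed sign, in 5 results that were not called. With single hearts left out, the Cyp2b10 interaction spanned -0.088 to 1.05, Cyp4f15 in aged KO against WT -0.58 to 0.94, Cyp3a13 in KO ageing -0.14 to 0.18, and Cyp4f18 -0.32 to 0.13 in young KO against WT and -0.045 to 0.39 in KO ageing. On log2(FPKM + 1) the Cyp2b10 interaction was -0.13 and the young Cyp4f18 difference 0.022, and on log2(FPKM + 0.1) the last was 0.030. Of 15 calls, 7 held under every setting run and 8 were lost in at least 1. Among the 7 were Cyp2b10 in both genotypes and Cyp4f15 in KO ageing, which passed the filter through their aged hearts. Cyp4f15 in KO ageing was compared in 24 of the 26 settings. With each heart left out in turn, members rising in KO ageing numbered 2 (without KO_Young_38) to 6, and 3 without KO_Aged_115. Members rising in WT ageing numbered 8 to 11 with each heart left out, and 7 with only the WT groups in the fit. Members lower in aged KO than in aged WT hearts numbered 0 to 1, with 1 without WT_Aged_12, against 0 as reported, and 1 under DESeq2, limma on log2(FPKM + 1) and no robust prior. The interaction gave 1 lower member by DESeq2, against 0. The cause of these shifts was not tested. With 4 hearts a group and 0 to 17 counts per young heart, the size of the Cyp2b10 and Cyp4f15 rises is poorly fixed.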
